A study of Mus musculus with 4 samples.

Results

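Chemokines are small secreted proteins that steer migrating leukocytes, and chemokine receptors are the G protein-coupled receptors through which cells read them. The genes described here were chosen by a rule on symbols, with earlier results of these data known. It takes every gene whose symbol is Ccl, Cxcl, Ccr, Cxcr or Ackr with its number, together with Cx3cl1, Cx3cr1, Xcl1, Xcr1, Ccrl2, Pf4 and Ppbp. This rule found 64 genes among the 24063 gene symbols of the count tables, of which 41 encode ligands and 23 encode receptors. RNA was sequenced from lung endothelial cells (ECs) that had been captured from C57BL6J mice (C57BL6 in the sample labels) with magnetic beads carrying an antibody to CD31. The mice were 8 weeks old and labelled male, and all were of that strain with no transgene or allele named. The PNX group had its left lung removed (pneumonectomy, PNX) and was studied 7 days later, and the sham group had its chest opened and the lung left in place. Each group held 2 libraries, 4 in all, and each library was pooled from 2 mice, so that p-values here measure the spread between pools.

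The bead fraction was labelled as endothelial, and Pecam1, the gene for CD31, stood at 374 FPKM in both groups (fragments scaled to transcript length and library total), with Cdh5 (VE-cadherin) at 376 FPKM in sham and 324 FPKM in PNX libraries. The fraction also held RNA of other cells. Sftpc, the surfactant gene of alveolar type 2 cells, was listed at 2893 FPKM in sham and 1889 FPKM in PNX libraries, and Ptprc (CD45), the leukocyte marker, at 28.2 and 28.3 FPKM. CD31 is also carried by platelets and several leukocytes, and the study's methods name a further column to raise purity and a flow cytometry check of the cells for CD31, VE-cadherin and the lack of CD45. The label male went against the counts: none of 44 chromosome Y genes had a single count, whereas Xist ranged from 31872 to 33792 normalized counts per library. Depth, counted on 1 transcript per gene, was 50952879 and 45261208 for sham and 46783725 and 41367438 for PNX, at which 3 counts correspond to a CPM (counts scaled to library total) of 0.0589 to 0.0725. Levels below are normalized read counts, scaled to the mean library size, unless FPKM is named, and only FPKM is used to set levels of different genes side by side. In bulk RNA such as this, a change in the number of cells of a type and a change in the RNA of each cell cannot be told apart.

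As background, ligands are grouped by the spacing of their first cysteines into CC, CXC, CX3C and XC chemokines. CC ligands mainly draw monocytes, eosinophils and lymphocytes, whereas the CXC ligands that act on Cxcr2 draw neutrophils and those that act on Cxcr3 draw activated T cells. Atypical receptors bind chemokines without the usual signal and remove or store them. In lung vessels, ECs present chemokines on their surface to passing leukocytes, and many of the inflammatory ligands are switched on by NF-kB or interferon signals.

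Of the 64 genes, 56 had enough counts to be tested and 8 did not. The 8 were the ligands Ccl19, Ccl20, Ccl21a, Ccl21b, Ccl21c, Ccl26, Ccl27b and Cxcl11, none of which had more than 5 counts in any library. A gene is said to have risen or fallen where its log2 fold change of PNX over sham passed 1 in size and its p, adjusted over all 16208 genes tested by edgeR's quasi-likelihood test, was under 0.01. By this rule 16 of the tested members rose and 3 fell. Among all genes tested, 5.9% rose and 1.66% fell, 7.56% together. The 16 were 13 ligands and 3 receptors, among them Ccr3 and Ackr1. The 3 that fell were the receptors Ccr7, Ccr9 and Cxcr5, and 0 ligands fell in this test or in DESeq2's Wald test, although 6 were lower at an unadjusted p under 0.05. Tested ligands had a median log2 fold change of 0.69 and receptors one of -0.11, against 0.00 over all genes tested. At an adjusted p under 0.01 and any size, 28 members were higher and 15 were lower, where 29.3% and 27.8% of all genes were. The counts of both groups overlapped in only 6 tested members, namely Ccl5, Ccl25, Ccl27a, Ccr8, Cxcr3 and Xcr1, and 81.2% of all genes had groups that did not overlap.

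**Figure D1:**
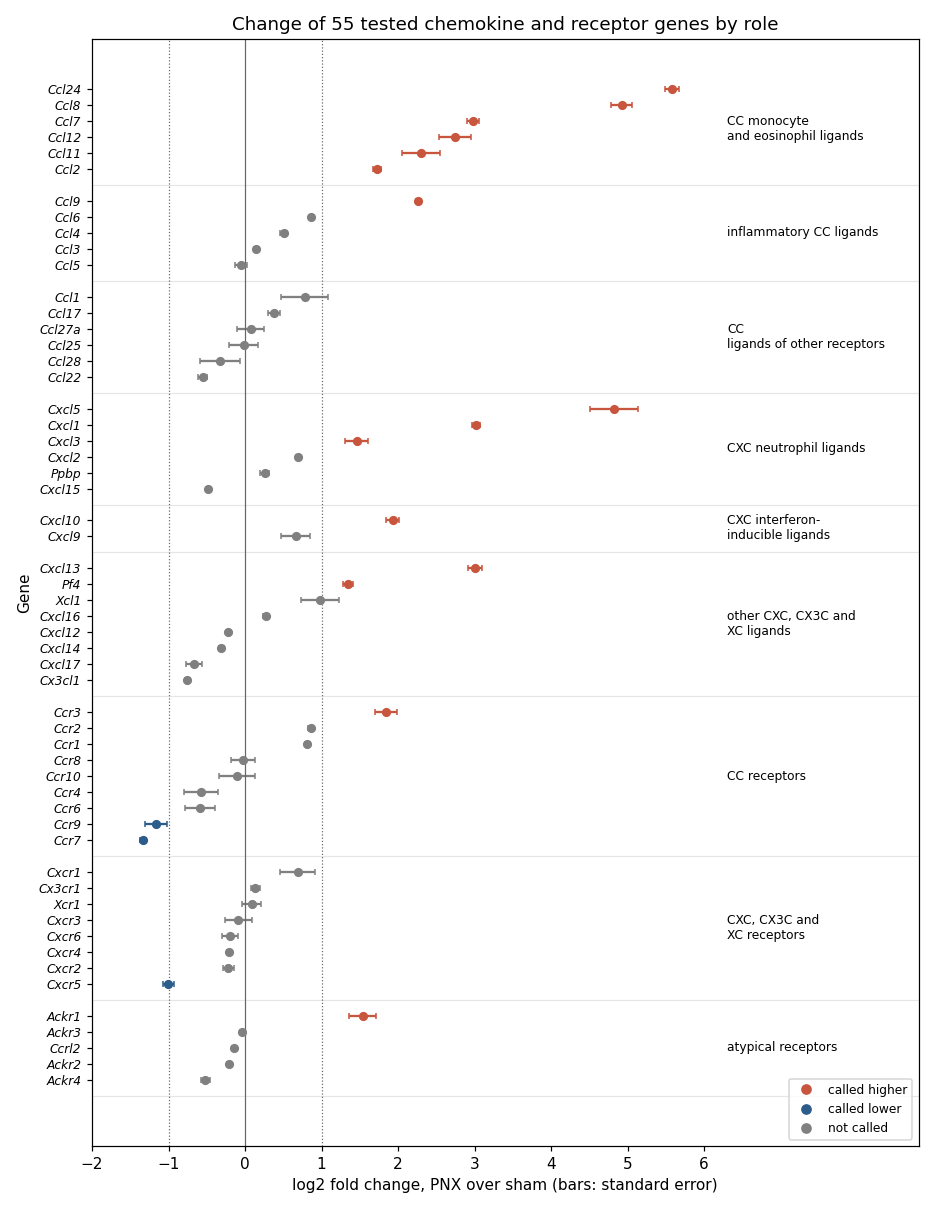
Log2 fold change of PNX over sham (horizontal axis) for 55 tested chemokine and receptor genes, ordered by role, with bars of 1 standard error and dotted lines at 1 and -1. The 6 tested CC ligands of monocytes and eosinophils all lie right of the upper line, from 1.73 (Ccl2) to 5.58 (Ccl24), and the 3 genes left of the lower line are receptors.

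The scaling of the libraries matters for small changes. Of the 12 endothelial marker genes, 10 were lower in PNX at an adjusted p under 0.01 and their summed level went from 11500-11640 CPM in sham to 10040-10070 CPM in PNX libraries. Scaling to these 12 genes moved the median of all genes up by 0.22 on the log2 scale. It called 20 members higher and 1 lower, and 92.8% of all calls were then of higher genes (1244 against 97, where the reported scaling gave 957 against 269). Where the direction of a single member given below turns under this scaling, it is said in the same sentence. Unless said otherwise, counts of genes higher or lower and directions of marker and pathway genes are those of the reported scaling. Marker and pathway genes that were lower by less than about 0.22 could turn under the other scaling.

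The group that moved most was that of the CC ligands known to draw monocytes and eosinophils. All 6 tested genes of this group rose, with a median log2 fold change of 2.86. Ccl24 (eotaxin-2), an eosinophil attractant acting on Ccr3, had 51.6 and 27.5 normalized counts in sham and 1913 and 1960 in PNX libraries. It was thus low in both sham and abundant in both PNX libraries, with a log2 fold change of 5.58 ± 0.09 (SE) and an adjusted p of 8.6e-52. Its sham libraries differed from each other, and with each of the 4 libraries left out in turn the log2 fold change lay between 5.23 and 6.13. Ccl8, a monocyte chemoattractant protein, had 16.3 and 28.5 counts in sham and 697 and 650 in PNX libraries. Its rise was of similar size (log2 fold change 4.93 ± 0.14, adjusted p = 1.2e-39), and the raw reads, 46 against 1292, gave a ratio of 30.6 (exact 95% interval for counting error only, 22.8 to 42.0).

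Ccl7, a ligand of Ccr2 and Ccr3, had 174 and 145 counts in sham and 1273 and 1249 in PNX libraries (log2 fold change 2.98 ± 0.07, adjusted p = 3.0e-42). Ccl2, the best known monocyte attractant, started higher, with 639 and 592 counts in sham, and reached 2062 and 2016 in PNX libraries (log2 fold change 1.73 ± 0.05, adjusted p = 2.2e-39). Both genes kept well apart in the groups. The other 2 had fewer reads. Ccl12, which acts on Ccr2, had 47 reads in sham against 291 in PNX libraries (ratio 6.74, 4.94 to 9.38), and Ccl11 (eotaxin-1) had 33 against 150 (ratio 4.95, 3.38 to 7.45). Per length, the highest of the group in PNX libraries were Ccl2 at 34.6 FPKM, Ccl7 at 21.6, Ccl24 at 20.5 and Ccl8 at 18.0 FPKM. In sham libraries Ccl2 led with 10.4 FPKM, and Ccl24 and Ccl8 lay at 0.417 and 0.596 FPKM, so that the order of the ligands differed between the groups. The seventh gene of the group, Ccl26, had 1 count in all and was not tested.

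Markers of other cell types moved in these same libraries. Of 6 macrophage markers, 6 were higher at an adjusted p under 0.01 and 3 rose (C1qa, C1qb and C1qc), and their sum went from 431-437 CPM in sham to 1017-1019 CPM in PNX libraries. Of 6 markers of macrophages of the body cavities 3 rose, among them Cd5l with a log2 fold change of 5.55, while Lyve1 fell. At an adjusted p under 0.01 and any size, 4 were higher and 2 lower. The sum went from 1488-1496 to 1034-1043 CPM, and most of it was Lyve1 and Icam2. Lyve1 (44903 and 44521 against 20125 and 20334 normalized counts) is also among the lymphatic endothelial markers given below. The sums of 6 monocyte markers (2129-2130 to 4842-4977 CPM) and 8 alveolar macrophage markers (1853-1868 to 4591-4700 CPM) both hold Chil3, with 2 of each list rising and Ear1, an alveolar macrophage marker, falling. Fibroblast markers went from 1033-1034 to 3575-3585 CPM, and the 4 of 6 that rose were Col1a1, Col3a1, Dcn and Lum. Pdgfra was lower, at -0.23 (adjusted p = 2.4e-15), and no difference was detected for Tcf21, at 0.02 (adjusted p = 0.677). Mesothelial markers went from 250-253 to 521-528 CPM with 4 of 6 rising, and mast cell markers from 6.12-6.65 to 20.5-20.6 CPM with 4 of 5 rising. None of these markers was at 0 in all libraries, and their part in the rise of the ligands was not tested.

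The receptors Ccr3 and Ccr2, on which several of these ligands act, differed from each other. Ccr3, the eotaxin receptor of eosinophils, had 54.4 and 55.0 counts in sham and 198 and 195 in PNX libraries. It rose with a log2 fold change of 1.84 ± 0.15 (adjusted p = 5.8e-17), at a level that stayed low per length, 0.227 FPKM in sham and 0.819 in PNX libraries. Ccr2, the receptor of Ccl2, Ccl7 and Ccl12, had 2150 and 1988 counts in sham and 3772 and 3731 in PNX libraries, which is a log2 fold change of 0.86 ± 0.03 (adjusted p = 1.1e-31) and short of the fold threshold. With scaling to the endothelial markers Ccr2 passed it, at 1.08. Of 5 eosinophil markers 1 (Ear6) rose, and at an adjusted p under 0.01 Epx, Prg2 and Ear6 were higher and Siglec5 lower. The sum was 47.8-48.9 CPM in sham and 38.2-38.3 CPM in PNX libraries, and most of it was Siglec5 (1934 and 1940 against 1307 and 1329 normalized counts), which is also on the alveolar macrophage list. Their part in the rise of Ccr3 was not tested.

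Among the inflammatory CC ligands Ccl3, Ccl4, Ccl5, Ccl6 and Ccl9, the median log2 fold change was 0.50, against 2.86 in the group above. Ccl9, a Ccr1 ligand made by myeloid cells, was the 1 of 5 that rose. It had 1385 and 1287 counts in sham and 6520 and 6341 in PNX libraries, a log2 fold change of 2.26 ± 0.03 (adjusted p = 1.0e-54). Ccl6, another Ccr1 ligand of myeloid cells, had the highest level per length of all members, with a mean of 163 FPKM in sham and 299 FPKM in PNX libraries. In counts this was 17255 and 17157 against 31408 and 31332, and its log2 fold change of 0.87 ± 0.02 (adjusted p = 5.1e-46) stayed under the fold threshold, which it passed only with scaling to the endothelial markers (1.09).

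Ccl3 (MIP-1 alpha) had 2702 and 2636 counts in sham and 2964 and 2938 in PNX libraries. Its log2 fold change was 0.14 ± 0.03 (adjusted p = 9.7e-05), so the groups did not overlap but differed little. Ccl4 (MIP-1 beta), at 0.50 ± 0.05, was also short of the fold threshold (adjusted p = 4.3e-13). Ccl5 (RANTES), an attractant of T cells and monocytes, had 417 and 434 counts in sham against 384 and 436 in PNX libraries. Its groups overlapped and no difference was detected (log2 fold change -0.06 ± 0.08, adjusted p = 0.536), with a sign that turned under scaling to the endothelial markers and without the first PNX library.

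Ccr1, the receptor that Ccl3, Ccl5, Ccl6 and Ccl9 act on, is carried by monocytes and neutrophils. It had 1413 and 1374 counts in sham and 2440 and 2470 in PNX libraries (log2 fold change 0.82 ± 0.04, adjusted p = 1.1e-27), short of the fold threshold, which it passed with scaling to the endothelial markers (1.04). Per length it went from 6.69 to 11.8 FPKM.

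**Figure D2:**
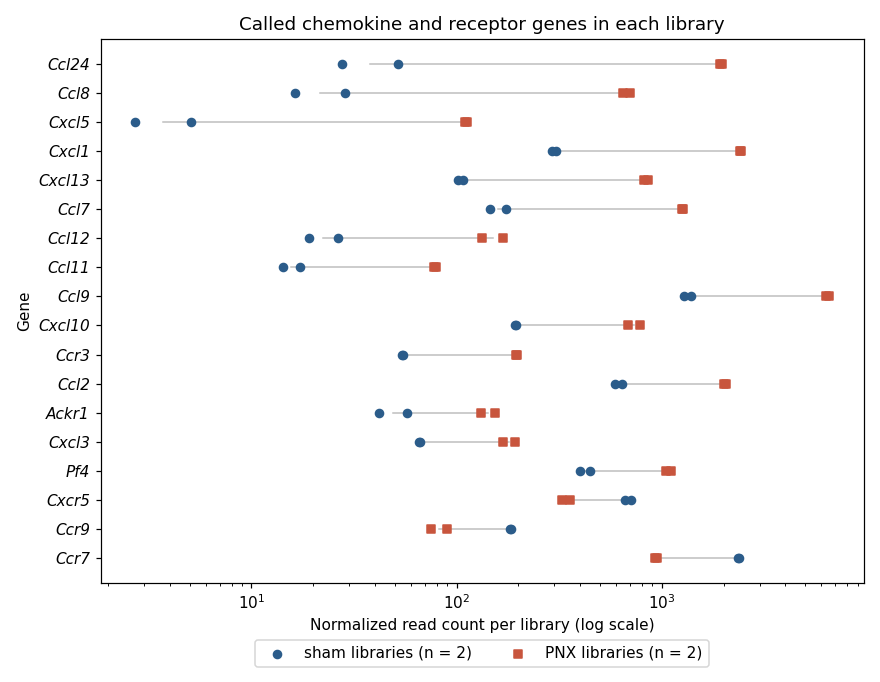
Normalized read counts in each library (log axis) of 18 chemokine and receptor genes that rose or fell, ordered by log2 fold change, with 2 sham libraries (circles) and 2 PNX libraries (squares) and a grey line from group mean to group mean. The groups do not overlap in any of these genes, and Ccl24, Ccl8, Cxcl5, Ccl12, Ccl11, Ccr3 and Ackr1 start below 60 counts in sham libraries.

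The CXC ligands known to draw neutrophils were split: 3 of 6 rose. Cxcl1, a main neutrophil attractant of the mouse, had 305 and 292 counts in sham and 2397 and 2433 in PNX libraries. This was an 8.08-fold difference (log2 fold change 3.01 ± 0.05, adjusted p = 6.1e-50), and it brought Cxcl1 from 4.27 to 34.8 FPKM. Cxcl3, a close relative, was less abundant, with 66.1 and 65.2 counts in sham and 192 and 168 in PNX libraries (log2 fold change 1.46 ± 0.15, adjusted p = 2.8e-13). Of the 50-base windows of Cxcl3, 6.3% also occur in the more abundant Cxcl2, so that its counts may hold reads of that gene. Cxcl5 rested on few sham reads, 8 in sham against 214 in PNX libraries, which gave a ratio of 29.1 with a wide exact 95% interval of 14.5 to 68.3. Its adjusted p was 7.3e-21.

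Cxcl2, the third close relative of Cxcl1, was already abundant in sham libraries. It had 2855 and 2850 counts in sham and 4660 and 4553 in PNX libraries, a log2 fold change of 0.69 ± 0.03 (adjusted p = 6.8e-30) that was short of the fold threshold. Its levels per length were 35.8 and 58.1 FPKM, so that in PNX libraries it still lay above Cxcl1. Ppbp, which encodes platelet basic protein, was at 0.26 ± 0.06 (adjusted p = 5.6e-05). Cxcl15 (lungkine), a lung ligand made by airway and alveolar epithelium, went the other way, with 18554 and 18344 counts in sham and 13307 and 13151 in PNX libraries (log2 fold change -0.48 ± 0.02, adjusted p = 1.0e-30). It was the second highest member per length, at 118 FPKM in sham and 85.0 FPKM in PNX libraries. All 5 alveolar type 2 markers were lower as well, at 6755-6774 CPM in sham and 4319-4357 CPM in PNX libraries in sum, as were all 4 airway secretory markers, 3 of which fell, at 3690-3710 and 1750-1816 CPM. Their part in the level of Cxcl15 was not tested.

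Cxcr2, the receptor of Cxcl1 and its close relatives, had 554 and 592 counts in sham and 534 and 447 in PNX libraries. Its log2 fold change of -0.22 ± 0.07 turned to 0.01 with scaling to the endothelial markers. Cxcr1, the other neutrophil receptor of this family, was lower in reads, with 35.3 and 36.7 counts in sham and 59.9 and 55.7 in PNX libraries (log2 fold change 0.69 ± 0.22, adjusted p = 0.0061). Neither passed the fold threshold. Of 6 neutrophil markers 1 (Mmp8) rose, 5 were higher at an adjusted p under 0.01, and the sum went from 227-232 to 266-270 CPM, and its part in these results was not tested.

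Cxcl1, Cxcl2 and Cxcl3 shared a stretch of letters just before their transcription starts. The promoters of 48 of the 64 genes were matched in RefSeq's table for GRCm38.p6, the assembly also called mm10, of which the 250 bases before each start were used. The longest run of letters that the promoters of these 3 genes had in common was GGGAATTTCCC, 11 letters that begin 71 bases before the start in Cxcl1, 97 in Cxcl2 and 73 in Cxcl3. The run holds a sequence of the kind that NF-kB is known to bind. Searched on both strands, these 11 letters were in 14 of 32851 promoters of the same length (0.043%), and in no other matched member. Its first 10 letters, GGGAATTTCC, were in 28 promoters (0.085%), and its last 10, which read GGGAAATTCC on the other strand, in 32 (0.097%), and both counts include the promoters with all 11 letters. The stretches from 110 to 31 bases before the start are shown because these close neighbours carry the same letters and changed by different amounts, with the 11 letters in capitals.
Cxcl1, chr5:90891135-90891214, plus strand: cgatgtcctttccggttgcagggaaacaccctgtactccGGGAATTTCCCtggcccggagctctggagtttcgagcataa
Cxcl2, chr5:90903789-90903868, plus strand: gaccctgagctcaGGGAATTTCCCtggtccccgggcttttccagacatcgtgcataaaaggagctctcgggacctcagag
Cxcl3, chr5:90785991-90786070, plus strand: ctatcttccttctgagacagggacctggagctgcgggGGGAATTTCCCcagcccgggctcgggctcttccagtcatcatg
With the same letters, the 3 genes stood at 8.08-fold (Cxcl1), 1.62-fold (Cxcl2) and 2.74-fold (Cxcl3). Among the other matched members GGGAATTTCC occurred in Ccr3, 179 bases before its start on the other strand, and GGGAAATTCC in Cxcl10. The match is a description of letters and says nothing of what is bound there.

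Of the interferon-inducible ligands of Cxcr3, which draw activated T and natural killer cells, 1 of 2 tested genes rose. Cxcl10 had 193 and 195 counts in sham and 783 and 688 in PNX libraries, a log2 fold change of 1.93 ± 0.08 (adjusted p = 7.7e-30). Exons of Art3 overlap 5.9% of its exon bases on the opposite strand. Cxcl9 had 56.2 and 46.9 counts in sham and 74.7 and 90.3 in PNX libraries (log2 fold change 0.66 ± 0.19, adjusted p = 0.0020), and Cxcl11 had between 0 and 3 counts and was not tested. Their receptor Cxcr3 was at 0.650 FPKM in sham and 0.616 in PNX libraries, its groups overlapped, and its log2 fold change of -0.09 ± 0.18 turned to 0.13 with scaling to the endothelial markers. Natural killer markers lay at 26.9-27.4 CPM in sham and 24.2-26.9 CPM in PNX libraries, and 0 of 6 rose or fell in edgeR's or DESeq2's test, with 1 higher and 2 lower at an unadjusted p under 0.05. The Cxcl10 promoter is shown because it held both the motif GGGAAATTCC, starting 159 bases before the start, and GAAANNGAAA, the core of the interferon-stimulated response element, starting 213 bases before the start and found in 2.977% of all promoters. The stretch runs from 220 to 91 bases before the start, with both matches in capitals.
Cxcl10, chr5:92348980-92349109, minus strand: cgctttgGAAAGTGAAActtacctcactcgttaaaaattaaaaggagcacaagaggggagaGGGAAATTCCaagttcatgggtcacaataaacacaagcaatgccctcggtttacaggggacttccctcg
Among the matched members GAAANNGAAA also occurred in Ccl19, which had 0 counts in all libraries, and in Cxcl14, which did not rise.

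The remaining CXC, CX3C and XC ligands went both ways: 2 of 8 rose. Cxcl13, the ligand that draws B cells through Cxcr5, had 107 and 102 counts in sham and 859 and 821 in PNX libraries. This was an 8.03-fold difference (log2 fold change 3.01 ± 0.09, adjusted p = 3.5e-38). Its receptor Cxcr5 moved in the opposite direction, with 711 and 659 counts in sham and 326 and 359 in PNX libraries. The log2 fold change of Cxcr5, -1.006 ± 0.073 (adjusted p = 5.4e-19), lay just past the threshold. Without the first sham library it was -0.95, without the first PNX library -0.93 and with scaling to the endothelial markers -0.78, so that Cxcr5 is not called in any of these. Per length, the ligand went from 1.22 to 9.88 FPKM and the receptor from 3.56 to 1.79 FPKM.

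Pf4 (platelet factor 4) rose from 449 and 402 counts in sham to 1111 and 1051 in PNX libraries (log2 fold change 1.34 ± 0.06, adjusted p = 3.2e-28). Ppbp, its neighbour and likewise a platelet granule gene, was at 0.26 on the same scale, given above. Of 9 platelet and megakaryocyte markers 0 rose in edgeR's or DESeq2's test and 6 were higher at an unadjusted p under 0.05, and their sum went from 63.6-66.7 to 80.8-84.0 CPM, with a part in the level of Pf4 that was not tested. Xcl1 (lymphotactin), an attractant of cross-presenting dendritic cells, had 22.7 and 30.6 counts in sham against 58.0 and 45.7 in PNX libraries. Its log2 fold change, 0.98 ± 0.25 (adjusted p = 0.00057), was just short of the threshold, and it passed with the second sham library (1.20) or the second PNX library (1.13) left out and with scaling to the endothelial markers (1.20). Exons of Gm20743 overlap 18.7% of the Xcl1 exon bases on the opposite strand, so that its counts may hold reads of that gene.

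The homeostatic ligands of this group were abundant and changed little. Cxcl12, the ligand of Cxcr4 that ECs and stromal cells make, had 23983 and 23817 counts in sham and 20333 and 20714 in PNX libraries, and its log2 fold change of -0.22 ± 0.02 (adjusted p = 3.4e-16) went to 0.00 with scaling to the endothelial markers. Cxcl14 had 5188 and 5317 counts in sham and 4320 and 4155 in PNX libraries, a log2 fold change of -0.31 ± 0.03 (adjusted p = 2.6e-15). Per length, Cxcl12 stood at 57.3 and 49.5 FPKM and Cxcl14 at 39.1 and 31.7 FPKM in sham and PNX libraries. Both were thus far from the fold threshold, and with scaling to the endothelial markers Cxcl14 was at -0.09.

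Cx3cl1 (fractalkine), a membrane-bound ligand that ECs carry, was the ligand with the most negative change. It had 4829 and 4951 counts in sham and 2838 and 2958 in PNX libraries, a log2 fold change of -0.76 ± 0.03 (adjusted p = 1.1e-31) that did not reach the threshold. Its receptor Cx3cr1, of monocytes, was at 2.58 and 2.83 FPKM (log2 fold change 0.13 ± 0.06, adjusted p = 0.045). Cxcl17, a mucosal ligand, was at -0.67 ± 0.10 (adjusted p = 6.1e-08) and Cxcl16, the membrane-bound ligand of Cxcr6, at 0.27 ± 0.03 (adjusted p = 1.2e-10), with 18.3% of its exon bases overlapped on the opposite strand by Zmynd15. Cxcr6 itself was at -0.20 ± 0.10 (adjusted p = 0.086), with a sign that turned to 0.03 with scaling to the endothelial markers. Its groups did not overlap, but no difference was detected.

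Of the CC ligands of other receptors, 6 of 12 were tested and 0 rose or fell in edgeR's or DESeq2's test, with 2 higher and 1 lower at an unadjusted p under 0.05. Ccl22 and Ccl17, the ligands of Ccr4 that dendritic cells and macrophages make, went apart: Ccl22 was at 979 and 1044 counts in sham and 695 and 679 in PNX libraries (log2 fold change -0.56 ± 0.06), and Ccl17 at 356 and 364 against 471 and 466 (0.38 ± 0.08). Dendritic cell markers were also mixed, with 2 of 7 rising and sums of 184-188 CPM in sham and 218 CPM in PNX libraries. Ccl1, a ligand of Ccr8, rested on 38 reads in sham and 60 in PNX libraries, a ratio of 1.72 (1.13 to 2.65). Ccl25, Ccl27a and Ccl28 had 27 to 84 reads per library and did not pass an adjusted p of 0.01, and 59.9% of the windows of Ccl27a also occur in other genes. The Ccr7 ligands Ccl19, Ccl21a, Ccl21b and Ccl21c had 0 to 5 reads per library, and 68.2% to 100% of the windows of the first 3 occur in other genes, so that their reads may have been counted elsewhere.

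The receptors that fell are those known from lymphocytes. Ccr7, which guides T cells and dendritic cells to lymph nodes, had 2389 and 2341 counts in sham and 951 and 927 in PNX libraries. This was the lowest log2 fold change of all members, -1.33 ± 0.04 (adjusted p = 1.7e-36), and it passed the threshold in every fit run. Ccr9, a homing receptor of T cells for Ccl25, had 183 and 185 counts in sham and 74.7 and 90.3 in PNX libraries (log2 fold change -1.16 ± 0.14, adjusted p = 8.7e-11). It lost its call with scaling to the endothelial markers (-0.94) and in a test against a log2 fold change of 1. Exons of other genes overlap 19.0% of the Ccr9 exon bases on the opposite strand and 2.6% on the same strand.

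Lymphocyte markers were lower in the same libraries. All 6 B cell markers and all 6 T cell markers were lower at an adjusted p under 0.01, though 0 fell by the rule on size in edgeR's or DESeq2's test. B cell markers went from 145 to 80.2-83.5 CPM and T cell markers from 68.3-68.5 to 50.7-50.8 CPM in sum. The sum of 6 lymphatic endothelial markers went from 1516-1521 to 1004-1019 CPM with Lyve1, which fell, while Prox1 (0.43) and Pdpn (0.39) were higher and the median of the list was -0.003 on the log2 scale. None of these lymphocyte and lymphatic markers was at 0 in all libraries, and their part in the fall of Ccr7, Ccr9 and Cxcr5 was not tested. Other receptors of T and B cells stayed short of the threshold. Ccr6, the receptor of Ccl20, was at -0.59 ± 0.19 (adjusted p = 0.0065) and Ccr4 at -0.57 ± 0.22 (adjusted p = 0.020), and Ccr4 reached -1.01 without the first PNX library. Ccr8 (-0.03 ± 0.15) and Ccr10 (-0.11 ± 0.24) did not pass and turned sign with scaling to the endothelial markers, to 0.19 and 0.11. Xcr1, the receptor of Xcl1, had overlapping groups (0.09 ± 0.12, adjusted p = 0.543).

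Cxcr4, the receptor of Cxcl12 on leukocytes and ECs, was the most abundant receptor per length, at 63.9 FPKM in sham and 55.3 FPKM in PNX libraries. It had 8343 and 8732 counts in sham and 7250 and 7443 in PNX libraries, and its log2 fold change of -0.22 ± 0.02 (adjusted p = 5.3e-12) went to 0.01 with scaling to the endothelial markers. Ackr3, the atypical receptor that takes up Cxcl12, had 6263 and 6260 counts in sham and 6054 and 6128 in PNX libraries. No difference was detected (log2 fold change -0.04 ± 0.02, adjusted p = 0.148, 0.18 with scaling to the endothelial markers), at 36.7 and 35.9 FPKM. Ligand and both receptors of Cxcl12 thus ranked among the 10 highest members per length in these cells, and none of the 3 passed the fold threshold.

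Of the 5 atypical receptors 1 rose. Ackr1 (the Duffy antigen receptor), which venous ECs use to carry chemokines across the vessel wall, had 41.7 and 57.1 counts in sham and 132 and 154 in PNX libraries (log2 fold change 1.54 ± 0.17, adjusted p = 8.3e-12). It was at 0.579 FPKM in sham and 1.68 FPKM in PNX libraries. Exons of Cadm3 overlap 25.7% of its exon bases on the same strand, so that its counts may hold reads of that gene. The summed level of 5 venous endothelial markers was 1552-1575 CPM in sham and 1569-1572 CPM in PNX libraries, and most of it was Vwf. At an adjusted p under 0.01 and any size, 3 of the 5 were higher and 2 lower. Selp, also among the markers of macrophages of the body cavities, rose with a log2 fold change of 1.14. Car8 was lower, at -0.55 (adjusted p = 1.35e-21). Their part in the rise of Ackr1 was not tested.

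Of the other atypical receptors, Ackr2, Ackr3 and Ccrl2 were abundant and Ackr4 less so. Ackr2, which clears inflammatory CC ligands, had 5996 and 6167 counts in sham and 5281 and 5231 in PNX libraries, a log2 fold change of -0.21 ± 0.03 (adjusted p = 1.3e-10) that went to 0.01 with scaling to the endothelial markers. Ccrl2, which presents the protein chemerin, had 5031 and 5021 counts in sham and 4704 and 4406 in PNX libraries (-0.14 ± 0.03, adjusted p = 1.4e-05, 0.08 with that scaling). Per length, Ccrl2 was at 32.4 and 29.5 FPKM and Ackr2 at 27.4 and 23.8 FPKM. Ackr4, which takes up the ligands of Ccr7 and Ccr9, was at 5.60 and 3.93 FPKM, with a log2 fold change of -0.52 ± 0.06 (adjusted p = 1.1e-11).

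**Figure D3:**
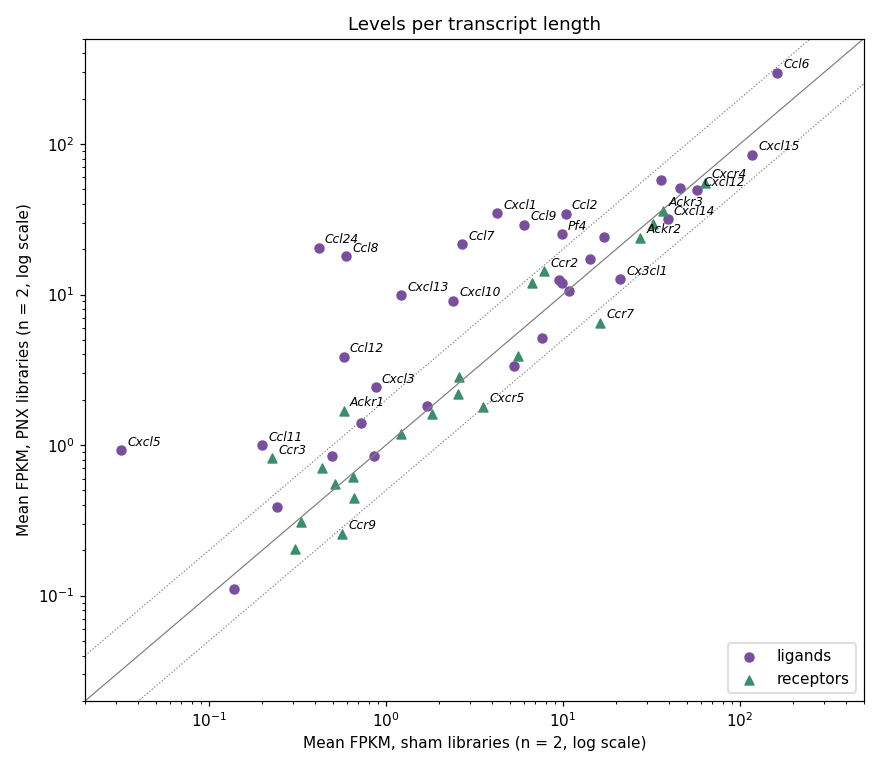
Mean FPKM of the 2 PNX libraries (vertical log axis) against that of the 2 sham libraries (horizontal log axis) for 55 tested ligands (circles) and receptors (triangles), with a solid line of equality, dotted lines at a log2 difference of 1 and symbols beside some points. Ccl6 stands highest in both groups (163 and 299 FPKM), Ccl24 and Ccl8 lie far above the line from under 1 FPKM in sham, and Ccr7 lies below it.

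Many chemokine genes stand beside each other on a chromosome, and neighbours did not always change alike. On chromosome 11, between 82035577 and 82179812 (mm10), Ccl2, Ccl7, Ccl11, Ccl12, Ccl8 and Ccl1 follow each other, and 5 of the 6 rose, all but Ccl1 at the end. Farther along, between 83525778 and 83664683, Ccl5, Ccl9, Ccl6, Ccl3 and Ccl4 follow, and Ccl9 was the 1 of 5 that rose. On chromosome 5, between 90759298 and 90905938, the order is Cxcl5, Ppbp, Pf4, Cxcl3, Cxcl15, Cxcl1 and Cxcl2, and 4 of these 7 rose, while log2 fold changes ranged from -0.48 (Cxcl15) to 4.82 (Cxcl5). Cxcl15, with its lower level in PNX libraries, thus lies between Cxcl3 and Cxcl1, which both rose. Among the receptors of chromosome 9, between 123767211 and 124109140, Ccr9 at the start fell, and Ccr3 rose between Ccr1 and Ccr2, while Cxcr6, Xcr1, Ccr1 and Ccr2 were not called. On chromosome 8, Ccl22, Cx3cl1 and Ccl17 lie together between 94745684 and 94812038, and 0 of the 3 were called in edgeR's or DESeq2's test, with log2 fold changes from -0.76 to 0.38, each at an adjusted p under 0.01.

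**Figure D4:**
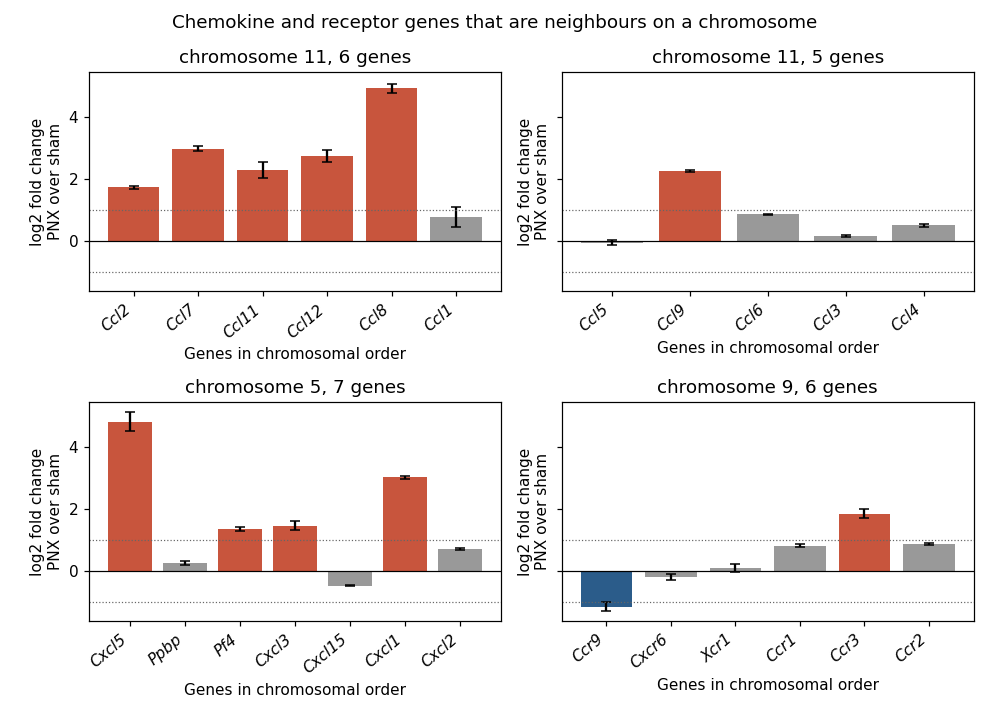
Log2 fold change of PNX over sham (vertical axis, bars of 1 standard error, dotted lines at 1 and -1) of neighbouring chemokine and receptor genes in their order on chromosomes 11, 5 and 9, in red where the gene rose, blue where it fell and grey where it was not called. Tall red bars stand beside grey bars in each of the 4 panels, such as Ccl8 (4.93) beside Ccl1 (0.78).

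Genes through which chemokine receptors signal were counted as a list of their own. Of 28 tested genes of this list, which covers inhibitory G proteins, arrestins, receptor kinases, phosphoinositide 3-kinase gamma, Rac and regulators of G protein signalling, 1 rose and 0 fell in both tests, with 14 higher and 8 lower at an unadjusted p under 0.05 and a median log2 fold change of 0.08. The gene that rose was Rgs16, which shortens G protein signals, with 443 and 499 counts in sham and 1170 and 1269 in PNX libraries (log2 fold change 1.38 ± 0.06, adjusted p = 1.8e-29). Of 12 tested cytokines that can induce chemokines, 2 rose and 0 fell in both, with 8 higher and 1 lower at an unadjusted p under 0.05 and a median of 0.36. Il6 had 379 and 364 counts in sham and 849 and 769 in PNX libraries (log2 fold change 1.13 ± 0.07, adjusted p = 2.0e-22). The other was Il10, named after its values were seen because it has under 100 counts on average, with 10.9 and 21.4 counts in sham and 134 and 136 in PNX libraries. Of 13 genes that NF-kB induces as its own feedback or targets, 0 rose or fell in both, 8 were higher and 5 lower at an unadjusted p under 0.05, and the median was 0.32. With scaling to the endothelial markers, 5 genes of these 3 lists rose instead of 3.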

How the data were processed

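The authors deposited, for each library, whole-number read counts on 33068 RefSeq transcripts of mm10, without normalization, and beside them FPKM and TPM values per transcript. Reads were aligned with STAR, per the submitters' processing notes. The library kit was stranded, but the counting program and its strand setting are not given in the sources used here. The deposited counts carried all tests, the deposited FPKM values served to set levels of genes side by side, and the deposited TPM values were not used.

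A read that overlaps several transcripts of a gene may have been counted on each, so for every symbol the transcript with the highest total over the 4 libraries was used. Counts were fitted in R 4.3.3 with edgeR 4.0.16: filterByExpr left 16208 genes, TMM factors lay between 0.9985 and 1.0026, and PNX was compared with sham by the quasi-likelihood F test without covariates, with Benjamini-Hochberg adjustment over all genes tested. Standard errors were obtained as the absolute log2 fold change over the square root of the F statistic. Alternatives were DESeq2 size factors and Wald test (DESeq2 1.42.0), library size alone, scaling to 12 endothelial markers, no filter, a mean of at least 50 counts, a replicate block, sums over all transcripts, glmTreat, and each library left out in turn. Replicate libraries differed only a little beyond counting noise. The mean chi-square per gene was 1.77 in the sham pair and 1.53 in the PNX pair, against 134 between a sham and a PNX library. The median SD of tested members within a group was 0.044 on the log2 scale, and the small p-values rest on this narrow spread.

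The members, the 3 pathway lists and the 19 cell type marker lists were chosen with earlier results of these data known. The rule for named genes gives full values for called members averaging 100 or more normalized counts and for the 10 members with the highest mean FPKM. Of pathway lists it takes the called genes with at least that mean. Symbols not matched in the tables (Adgre1, Siglecf, Ly6g, and Grk2 and Grk3 beside their older names) were not used. Steps were tested on simulated data. Shared 50-base windows were computed for the 62 members with a GENCODE transcript, and exon overlaps for every member but Ccl21c. Intervals for ratios of reads cover counting error only. A result for 1 member is not reported here, and that gene enters the counts only.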

Additional observations from a re-analysis of the deposited data

How the results depend on the processing

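Of the 56 members tested, each kept its direction and call with DESeq2 size factors, DESeq2's Wald test, library size alone, no filter and the replicate block, as did the 50 left with a mean of at least 50 counts. The replicate block gave 16 members called higher and 3 lower, and 957 and 272 of all genes. The replicate numbers are those of different mice, and the deviations of libraries with the same number correlated at 0.02 over 14299 genes, so that they are not taken to pair the libraries. DESeq2's Wald test called 825 genes higher and 188 lower. Counts summed over transcripts turned Ccl27a (-0.15).

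Scaling to the endothelial markers left 1 member lower, a receptor, gave 5 receptors and 5 pathway genes higher and moved the members' median log2 fold change to 0.42. It turned the sign of Ackr2 (0.012), Ackr3 (0.18), Ccl25 (0.20), Ccl5 (0.17), Ccr10 (0.11), Ccr8 (0.19), Ccrl2 (0.081), Cxcl12 (0.002), Cxcr2 (0.005), Cxcr3 (0.13), Cxcr4 (0.006) and Cxcr6 (0.025). A test against a log2 fold change of 1 (glmTreat) also left 1 member lower, a receptor, since Ccr9 and Cxcr5 lie close to that size, and called 604 genes higher and 39 lower. The members' median was 0.26 with no filter and 0.14 with a mean of at least 50 counts, which test more and fewer members.

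With each library left out in turn, between 16 and 17 members were called higher and between 2 and 3 lower, ligands called higher ranged from 13 to 14, pathway genes from 3 to 4 and the median from 0.18 to 0.23. Signs turned in such fits for Ccl25 (-0.202 to 0.172), Ccl5 (-0.145 to 0.037), Ccr8 (-0.147 to 0.090), Cxcr3 (-0.168 to 0.004) and Xcr1 (-0.074 to 0.289). Depth limits Cxcl5, Ccl1 and the 8 members not tested, and 2 libraries per group limit every error given.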
